A study of Mus musculus with 72 samples.

Results

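Resting transcriptomes of 1181-Ctrl and 1014-Ctrl were compared. These are a pair of mouse melanoma cell lines that carry an empty vector and are labelled negative for the gastrin-releasing peptide receptor (GRPR). The comparison was defined by the labels, with 1 exception. It takes the mock-treated libraries of both lines, without 1 labelled 1014-Ctrl that was dropped for its values, and the genes on the 19 autosomes. It rests on 5 of the 72 RNA-seq libraries of the series, 3 of 1181-Ctrl and 2 of 1014-Ctrl, and on 14210 autosomal genes that passed the filter on low counts, of 46158 autosomal genes in the count table. The series held 6 lines, each given mock medium, 10 nM GRP, 1 µM of the GRPR antagonist RC-3095 or both, in 3 replicates. Mock cells were kept for 18 h in 0.5% serum and then for 4 h with 0.1% DMSO. The 1181-Ctrl line is labelled male, with the transgene Tyr::NRASQ61K/°, Cdkn2a-/- and Cdh1dF/dF but no Cre (°/° in its place), and with the vector CMV::tGFP. The 1014-Ctrl line is labelled female, with Tyr::NRASQ61K/° and the same vector, and its label lists no Cdkn2a or Cdh1 allele. Both lines therefore share the melanocyte-driven NRAS transgene, and selection with geneticin, which the methods give at a higher concentration for 1181 than for 1014 cells. Each line comes from 1 mouse tumour, so sex, the Cdkn2a and Cdh1 alleles, the geneticin concentration and the history of the tumour cannot be told apart in what follows. The labels do not say that replicates were separate cultures, so p-values measure the spread between the libraries in the fit. The fit also holds 9 treated 1014-Ctrl libraries, which were not independent of the mock libraries. The spread is therefore estimated mostly within 1014-Ctrl.

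Total counts of the 24 libraries of both lines lay between 19714679 and 33713177, and 3 counts amounted to at most 0.152 CPM, the counts of a gene scaled to a fixed library total, in any of them. The library labelled 1014-Ctrl mock 2 stood apart and was left out. To describe it, 90 autosomal genes called higher in 1181-Ctrl in the fit without it were taken. They had at least 10 CPM in 1181-Ctrl and at most 3 counts over the 1014-Ctrl mock libraries 1 and 3. A set of 44 genes called lower had the opposite pattern. The library labelled 1014-Ctrl mock 2 held 90 of the 90 genes of 1181-Ctrl, at a median of 55.9% of their level there, and 43 of the 44 genes of 1014-Ctrl, at a median of 33.1%. The other 9 libraries of treated 1014-Ctrl held 2 to 6 of the 90 genes over 3 counts, with a median level of 0%. A related state was seen in the receptor-bearing derivative 1181-Grpr, in which 11 of 12 libraries held all 90 genes of 1181-Ctrl at medians of 58.0 to 65.3% and 43 or 44 genes of 1014-Ctrl at 30.2 to 33.4%. The library labelled 1181-Grpr GRP+RC 2 held 9 of the 90 genes, at a median of 0.050%, and all 44 genes of 1014-Ctrl at 96.2%. By the choice of these genes, none of the 3 mock libraries of 1181-Ctrl could hold any of the 44 over 3 counts. The same holds for 1014-Ctrl mock 1 and 3 and the 90 genes. How these mixed levels arose was not tested.

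**Figure D1:**
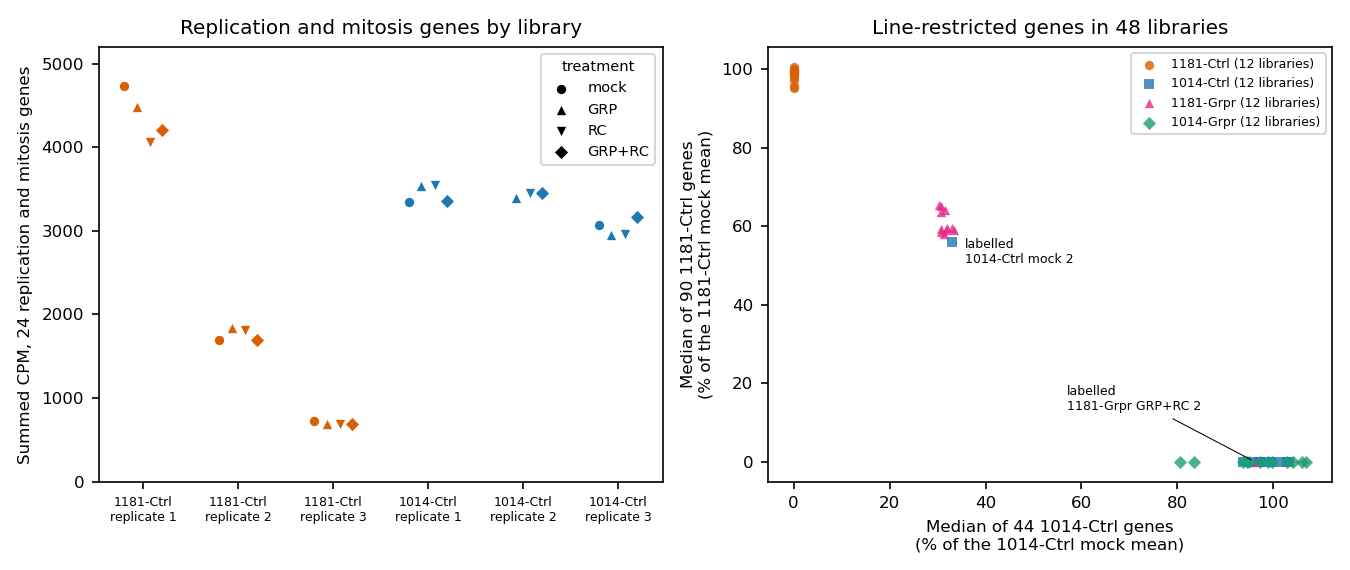
Left, summed CPM of 24 DNA replication and mitosis genes (y axis) in each library of 1181-Ctrl and 1014-Ctrl, by replicate number (x axis) and treatment (symbols). The 1181-Ctrl libraries fall into 3 levels by replicate number, 4063 to 4735, 1689 to 1835 and 685.5 to 730 CPM. Right, each of 48 libraries placed by its median level of the 44 genes of 1014-Ctrl (x axis, percent of the 1014-Ctrl mock mean) and of the 90 genes of 1181-Ctrl (y axis, percent of the 1181-Ctrl mock mean). The library labelled 1014-Ctrl mock 2 lies with the 1181-Grpr libraries, at 33.1 and 55.9%, and the library labelled 1181-Grpr GRP+RC 2 lies with the 1014 lines.

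Melanocytes arise from the neural crest. MITF, a transcription factor that binds E-box motifs in gene promoters, maintains their pigment programme, and melanoma cells move between pigmented, neural-crest-like and undifferentiated states. Genes of tumour lines also record where in the body a melanocyte came from (Hox and other patterning genes), which signalling pathways are active (Wnt, ERK, p53, interferon) and which stretches of chromosome were gained or lost.

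The lines differed in a large part of the transcriptome. At an adjusted p below 0.05 and a log2 fold change beyond 1 in size (edgeR quasi-likelihood test, Benjamini-Hochberg adjustment over all genes tested), 1997 genes (14.1% of those tested) were higher in 1181-Ctrl and 1977 (13.9%) were lower, 28.0% in all. Protein-coding genes made up 1568 of the higher and 1671 of the lower set. Differences beyond 4 on the log2 scale, in either direction, were seen for 492 higher and 514 lower genes. Many genes were read in 1 line only: 370 of the higher genes had at most 3 counts over the 1014-Ctrl libraries, and 337 of the lower genes had at most 3 counts over the 1181-Ctrl libraries. The mock libraries of the lines did not overlap for 3933 of the 3974 called genes, and for 9685 (68.2%) of all genes tested. The median log2 fold change of all tested genes was 0.03.

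**Figure D2:**
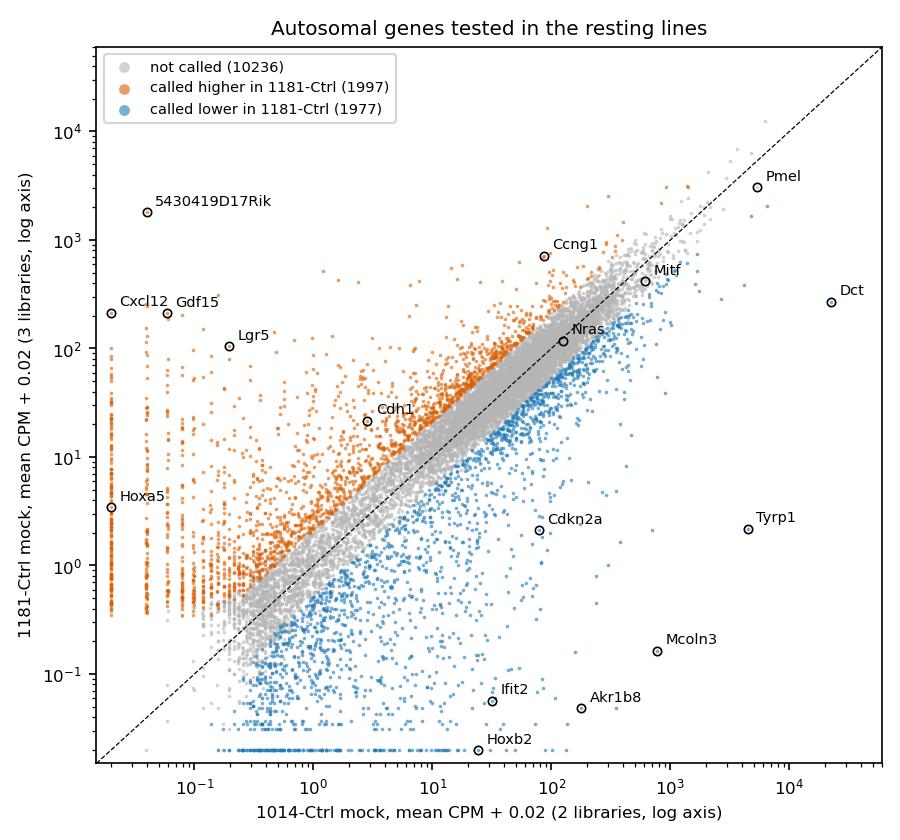
Mean CPM plus 0.02 of each autosomal gene tested, in 2 libraries of 1014-Ctrl (x axis) and 3 of 1181-Ctrl (y axis), both log axes; the dashed line marks equal levels. Genes called higher in 1181-Ctrl (1997) are orange, genes called lower (1977) blue and the other 10236 grey. Columns and rows of points at the edges are genes with no or few counts in 1 line, among them Cxcl12, Hoxa5 and Hoxb2.

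The autosomal genes named in the genotypes were read first. Cdkn2a (ENSMUSG00000044303, chr4:89274471-89294653), which encodes the cell-cycle inhibitors p16INK4a and p19ARF, had 1.67, 2.20 and 2.38 CPM in 1181-Ctrl against 83.2 and 74.1 CPM in 1014-Ctrl. The groups did not overlap, and the level in the Cdkn2a-/- line was lower by a log2 fold change of -5.32 ± 0.14 (SE; adjusted p = 1.87e-11). The 1057 and 1064 lines, also labelled Cdkn2a-/-, had 3.59 to 4.48 and 5.54 to 7.31 CPM, so each of the lines labelled with the deleted allele kept some counts of this gene. Its neighbour Cdkn2b, another CDK inhibitor, was lower as well, at 15.3, 24.9 and 26.3 CPM against 54.1 and 55.6 CPM (log2 fold change -1.39 ± 0.21, adjusted p = 7.44e-05). Cdh1 (ENSMUSG00000000303, chr8:106603351-106670246), the gene of E-cadherin, had 19.8, 26.3 and 18.6 CPM in 1181-Ctrl and 3.51 and 2.13 CPM in 1014-Ctrl. It was thus higher in the line whose label carries the Cdh1dF/dF alleles without Cre, by 2.85 ± 0.49 (log2 scale, adjusted p = 2.49e-04). In the 1057 and 1064 mock libraries, which carry the same alleles with Tyr::CreA, Cdh1 had 0 or 1 count in each. Counts of Nras were 117.7, 111 and 126.3 CPM in 1181-Ctrl and 128.3 and 122.6 CPM in 1014-Ctrl, with a log2 fold change of -0.17 ± 0.08 (adjusted p = 0.071). Reads of the NRAS transgene were not counted separately.

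Several pigment genes were far lower in 1181-Ctrl, with Tyrp1, Dct, Oca2 and Rab38 the most separated. Of 20 melanocyte genes on the list, all passed the filter, 9 were lower, 2 were higher and 9 were not called, and the list median was -0.77 on the log2 scale against 0.03 for all genes tested. For this list and those below, the shares over all genes tested are 14.1% higher and 13.9% lower. The promoters of 4 of them are shown, of 3 genes that were lower (Tyrp1, Dct and Oca2) and of 1 that was higher (Trpm1). They were chosen because each holds the hexamer CATGTG, or its reverse complement CACATG, the core of the MITF-bound M-box. Of the other called pigment genes with a matched promoter, Slc24a5 held it in the 250 bases upstream. Gpnmb and Ednrb, the latter with the highest log2 fold change of the list (3.53), did not. The sequences are the 250 bases upstream of each start in RefSeq (GRCm38.p6), read 5′ to 3′ on the strand of the gene, with the motif in capitals: Tyrp1 at chr4:80833963-80834212 (plus strand), Dct at chr14:118052247-118052496 (minus strand), Oca2 at chr7:56239509-56239758 (plus strand) and Trpm1 at chr7:64153585-64153834 (plus strand).
Tyrp1: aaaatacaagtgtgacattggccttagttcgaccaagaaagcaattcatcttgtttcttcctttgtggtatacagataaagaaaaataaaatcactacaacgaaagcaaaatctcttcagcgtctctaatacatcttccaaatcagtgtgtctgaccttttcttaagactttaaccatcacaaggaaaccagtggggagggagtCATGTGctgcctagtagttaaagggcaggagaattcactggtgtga
Dct: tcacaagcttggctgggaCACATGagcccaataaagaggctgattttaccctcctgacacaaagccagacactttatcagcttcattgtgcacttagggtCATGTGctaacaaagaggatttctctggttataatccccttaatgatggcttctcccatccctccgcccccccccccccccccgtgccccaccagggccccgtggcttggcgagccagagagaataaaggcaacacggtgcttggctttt
Oca2: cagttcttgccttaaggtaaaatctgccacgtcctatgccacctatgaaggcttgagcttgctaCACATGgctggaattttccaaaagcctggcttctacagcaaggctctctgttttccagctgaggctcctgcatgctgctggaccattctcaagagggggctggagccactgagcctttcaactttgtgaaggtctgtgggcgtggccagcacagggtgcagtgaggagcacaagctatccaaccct
Trpm1: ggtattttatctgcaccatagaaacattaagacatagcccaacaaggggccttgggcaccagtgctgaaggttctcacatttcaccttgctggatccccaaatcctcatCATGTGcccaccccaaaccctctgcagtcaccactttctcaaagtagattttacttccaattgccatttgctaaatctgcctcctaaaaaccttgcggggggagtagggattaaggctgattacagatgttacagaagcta

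In windows that also took the 50 bases after the start, CATGTG on either strand was present in 7 of the 13 pigment genes for which a promoter was matched (53.8%), and in 10.4% of the promoters of all tested genes. The shares were 12.6% among genes called higher and 12.8% among genes called lower. CACGTG, the canonical E-box that MITF also binds, was held by 3 of the 13 pigment promoters, by 10.9% of the higher, 10.1% of the lower and 11.4% of all promoters. TGANTCA, the AP-1 site, was in 3 of the 13, in 7.8% of the higher, in 7.6% of the lower and in 6.1% of all. Trpm1 has a further promoter in the table, which held CACGTG.

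Among the enzymes of melanin synthesis, Tyrp1 had 1.33, 1.22 and 3.96 CPM in the 1181-Ctrl libraries and 5391 and 3570 CPM in the 1014-Ctrl libraries. The log2 fold change was -11.17 ± 0.53 (adjusted p = 2.53e-09), and over all treatments 12 libraries of 1181-Ctrl stayed at 0.915 to 4.62 CPM and 11 of 1014-Ctrl at 3142 to 5562 CPM. Dct, the gene of dopachrome tautomerase, had 180.9, 264.4 and 364.4 CPM against 22470 and 22340 CPM (-6.46 ± 0.25, adjusted p = 3.28e-10). The gene of the rate-limiting enzyme, Tyr, did not follow them: 1509, 966.4 and 1751 CPM stood against 2070 and 1768 CPM, a log2 fold change of -0.53 ± 0.20 that missed the fold threshold (adjusted p = 0.033). A pair of melanosome genes was low in 1181-Ctrl too. Oca2, a melanosomal anion transporter, had 0.472, 0.237 and 0.558 CPM against 31.9 and 29.9 CPM (-6.33). Rab38, a GTPase that routes melanin enzymes to the melanosome, had 1.37, 1.35 and 1.42 CPM against 84.5 and 98.1 CPM (-6.13). Smaller reductions were called for Mlana (-1.71), Slc45a2 (-1.27), Slc24a5 (-1.01), Gpnmb (-1.75) and Bace2 (-1.70). Pmel, the fibril protein of the melanosome, had 3043, 3343 and 2768 CPM against 5611 and 5137 CPM, a log2 fold change of -0.90 that did not reach the threshold.

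The genes that went the other way were Trpm1, a melanocyte cation channel, and Ednrb, the endothelin receptor of the melanoblast. Trpm1 had 695.3, 841.9 and 713.3 CPM in 1181-Ctrl and 81.1 and 115.3 CPM in 1014-Ctrl (log2 fold change 2.85, adjusted p = 1.17e-06). Ednrb had 6.18, 4.54 and 4.51 CPM against 0.315 and 0.503 CPM (3.53, adjusted p = 7.08e-06). With the library labelled 1014-Ctrl mock 2 kept in the fit, the Ednrb value turned to -3.10, since that library had 122.8 CPM, far above both lines. The 1181-Grpr mock libraries 1 to 3 had 66.5, 115.7 and 55.3 CPM of Ednrb. The regulators of the lineage differed little. Mitf had 427.9, 432 and 398.7 CPM against 542.7 and 684.6 CPM (-0.64 ± 0.13, adjusted p = 0.0012), and the log2 fold changes of Sox10 and Pax3 were -0.40 and 0.24, so none of the 3 was called. All 9 markers of the melanocyte lineage were present in every library, with a summed level of 8158 to 8680 TPM, a length-scaled abundance, in 1181-Ctrl and 53140 to 55600 TPM in 1014-Ctrl. In bulk RNA, fewer expressing cells and less RNA per cell cannot be told apart.

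**Figure D3:**
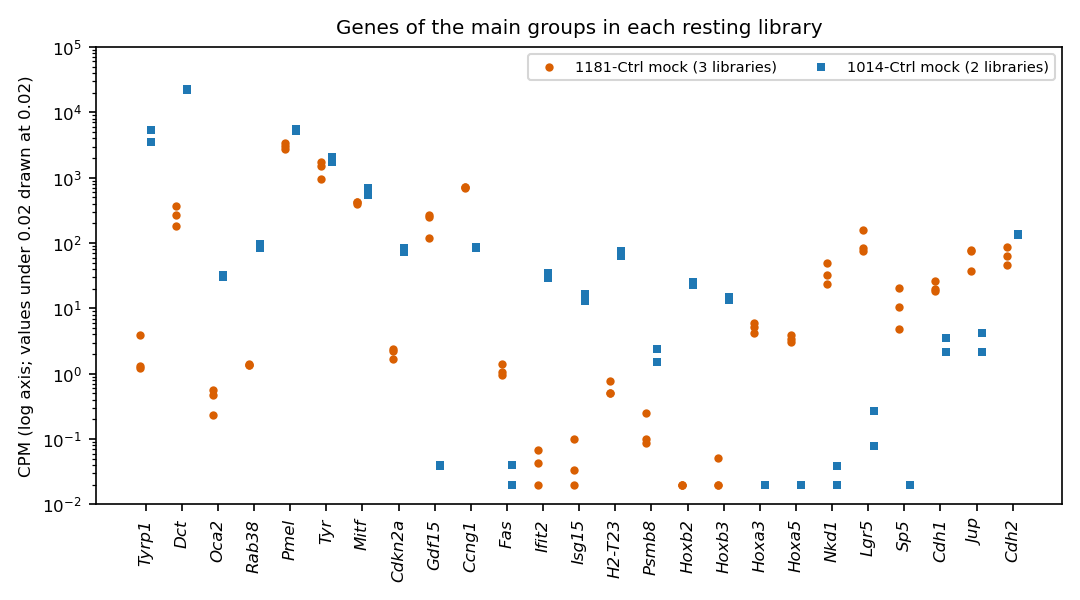
CPM (y axis, log scale, values under 0.02 drawn at 0.02) of 25 genes (x axis) in each of 3 libraries of 1181-Ctrl (orange circles) and 2 of 1014-Ctrl (blue squares). Tyrp1, Dct, Oca2 and Rab38 are separated by far more than the spread of the replicates while Pmel, Tyr and Mitf lie close together; Gdf15, Nkd1, Lgr5, Sp5 and the Hoxa genes are high in 1181-Ctrl, and Cdkn2a, Ifit2, Isg15, H2-T23 and the Hoxb genes in 1014-Ctrl.

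Neural crest and undifferentiated-state genes were split. Of 23 listed, 20 were tested, 3 were higher and 9 lower in 1181-Ctrl, with a median of -0.62. Foxd3, a transcription factor of the premigratory neural crest, had no count in the 3 libraries of 1181-Ctrl and 16.8 and 15.9 CPM in 1014-Ctrl, at least 396.1-fold lower when the group was set to a floor of 3 counts. Tfap2b, another crest factor, was also without a count in 1181-Ctrl and had 1.10 and 1.39 CPM in 1014-Ctrl, at least 30.2-fold lower. Wnt5a, a ligand of non-canonical Wnt signalling associated with invasive melanoma, showed the reverse: 10.4, 28.3 and 22.4 CPM against none, at least 358.2-fold higher. Sox2, a factor of neural progenitors, was higher as well (59.1, 39.0 and 90.5 CPM against 2.37 and 2.86 CPM; log2 fold change 4.50). The matrix glycoprotein gene Tnc was lower (-6.35), and Gfra2, Ncam1 and Sox9 were lower as well, at -5.00, -3.06 and -1.81. Erbb3 and Nes, with the highest CPM of the members not called, had log2 fold changes of -0.29 and -0.27.

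Of 20 cadherins and regulators of epithelial-mesenchymal transition, 13 were tested, 3 were higher and 1 was lower (median 0.54). The share called in either direction was near the 28.0% of all genes tested. Beside Cdh1, the junction protein gene Jup had 36.8, 77.3 and 76.6 CPM in 1181-Ctrl and 2.13 and 4.18 CPM in 1014-Ctrl (4.24 ± 0.52, adjusted p = 1.54e-05). Twist2 had 1.25, 0.847 and 0.812 CPM against none, at least 16.5-fold higher, but 46.5% of its exon bases are shared with a gene on the opposite strand, and the strand setting of the counting is not given in the sources used here. Cdh2, the gene of N-cadherin, was lower at 88.4, 45.5 and 62.4 CPM against 133.8 and 136 CPM (-1.14, adjusted p = 1.15e-04); without 1181-Ctrl mock 2 it was -0.93 and not called. Ctnnb1 and Vim gave -0.55 and 0.69 and were not called, and Zeb1, Zeb2 and Snai2 lay between 0.35 and 0.54.

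Hox genes, whose clusters set position along the body axis, differed by cluster. Of 39 listed, 12 were tested. The 5 that were higher in 1181-Ctrl all belonged to the Hoxa cluster on chromosome 6 (Hoxa3 and Hoxa5 among them), and the 6 that were lower all to the Hoxb cluster on chromosome 11 (Hoxb2, Hoxb3, Hoxb4, Hoxb6, Hoxb8 and Hoxb9). The remaining gene tested, Hoxb5, was not called and had a total of 7 counts in 1014-Ctrl and none in 1181-Ctrl. Hoxa3 had 4.21, 5.21 and 6.04 CPM in 1181-Ctrl and no count in 1014-Ctrl, at least 87.3-fold higher. Hoxa5 behaved alike at 3.35, 3.05 and 3.85 CPM against none, at least 57.4-fold. Hoxb2 had no count in 1181-Ctrl and 22.8 and 25.5 CPM in 1014-Ctrl, at least 583.5-fold lower. Hoxb3, with 1 count over the 1181-Ctrl libraries against 13.3 and 14.9 CPM, was 1022-fold lower with a counting interval of 182.9 to 40440 (exact 95% binomial), and shares 52.9% of its exon bases with a gene on the other strand. Hoxb9 was the member with the least separation among the 6, at 0.343, 1.96 and 0.913 CPM against 18.1 and 23.2 CPM (log2 fold change -4.28). The list median was -4.60 from the fit and -2.80 with genes at 0 set to their bound.

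Of 26 other patterning factors, 17 were tested, 7 were higher in 1181-Ctrl, 2 were lower and 8 were not called (median 0.79). Dlx2, a factor of the branchial arches and forebrain, had 0.773, 0.880 and 1.77 CPM against none, at least 18.6-fold higher, but it was not called with DESeq2. Msx1 had 2.02, 3.79 and 3.50 CPM against 2 counts over both 1014-Ctrl libraries, 80.5-fold higher with a counting interval of 22.03 to 668.7. Lmx1b, on 62 against 2 counts, was 21.9-fold higher (5.81 to 184.8). Tbx3, Dlx1 and Meis1 were higher by 3.01, 1.51 and 1.03 on the log2 scale. Among those lower, Tbx1 was called on a total of 11 counts, a call that was lost when 1181-Ctrl mock 2 or 1014-Ctrl mock 3 was left out. Tbx2, which restrains senescence in melanocytes, had the highest CPM of those not called (668.7, 1848 and 903.3 against 533.2 and 713.3 CPM); without 1181-Ctrl mock 1 it was called higher, at 1.06.

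Of 23 CDK inhibitors and targets of p53, the stress-activated tumour suppressor, 20 were tested, 10 were higher in 1181-Ctrl, 3 were lower and 7 were not called, with a median of 1.10. The 3 lower genes were all inhibitors of CDK4 and CDK6 (Cdkn2a, Cdkn2b and Cdkn2c), whereas Cdkn1a, the gene of p21, was higher at 467.9, 299.8 and 382.1 CPM against 109 and 78.2 CPM (log2 fold change 1.94 ± 0.25, adjusted p = 2.37e-05). Gdf15, a stress cytokine, had 247.9, 270.3 and 118.3 CPM against 1 count in each 1014-Ctrl library, a 5681-fold difference with a counting interval of 1572 to 46910. Ccng1, a cyclin-like p53 target, showed a narrow spread, at 731.7, 692.3 and 721.2 CPM against 88.1 and 84.6 CPM (2.96 ± 0.10, adjusted p = 1.27e-10). Fas, the death receptor gene, was higher on few counts (81 against 1 in total). Bbc3, Zmat3, Trp53inp1, Sesn2, Aen and Phlda3 were higher by 1.22 to 2.18 on the log2 scale. Mdm2 and Bax, at 0.95 and 0.98, fell just short of the fold threshold, the targets Sesn1 and Plk2 gave 0.02 and 0.10, and Trp53 itself gave 0.39.

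The 24 DNA replication and mitosis genes were all tested and none was called, although all 24 had a log2 fold change below 0 (range -1.03 to -0.01, median -0.51). The spread within 1181-Ctrl was wide. Mki67, the proliferation marker, had 691.8, 266.2 and 59.9 CPM in the 1181-Ctrl libraries and 540.7 and 622.1 CPM in the 1014-Ctrl libraries, so that 1014-Ctrl lay inside the range of 1181-Ctrl. Top2a, the topoisomerase of dividing cells, had 942.1, 319.8 and 78.8 CPM against 633.9 and 552.6 CPM. The summed CPM of the 24 genes was 4063 to 4735 in the 4 libraries numbered 1 of 1181-Ctrl, 1689 to 1835 in those numbered 2 and 685.5 to 730 in those numbered 3, whatever the treatment, and 2949 to 3553 in the 11 libraries of 1014-Ctrl. Without 1181-Ctrl mock 1, 19 of the 24 genes were called lower. The replicates of 1181-Ctrl thus lay on both sides of 1014-Ctrl for these genes. Of 12 D cyclins and MYC-network genes, 10 were tested, 2 were higher and 1 was lower (median 0.45), near the 28.0% called of all genes tested. Myc had 210.3, 155 and 167.7 CPM against 55.6 and 53.5 CPM (1.61 ± 0.12) and its antagonist Mxi1 was higher by 1.42. Ccnd2 was lower at 138.4, 173.9 and 239.1 CPM against 818.6 and 915.3 CPM (-2.33 ± 0.17). Ccnd1, the D cyclin commonly induced in melanoma, gave 0.95 and was not called (adjusted p = 2.10e-04), though without 1181-Ctrl mock 2 it was called, at 1.14, and Cdk4 gave -0.16.

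Of 22 listed targets of Wnt and beta-catenin signalling, many of which feed back on the pathway, 17 were tested, 10 were higher in 1181-Ctrl, 2 were lower and 5 were not called (median 1.08). The negative regulator Nkd1 had 23.3, 49.9 and 32.3 CPM in 1181-Ctrl and 1 count over both 1014-Ctrl libraries, 1873-fold higher with a counting interval of 335.9 to 74020. Sp5, a transcription factor induced by beta-catenin, had 4.85, 20.5 and 10.5 CPM against none, at least 218-fold higher. Lgr5, the R-spondin receptor, had 155.8, 75.7 and 83.6 CPM against 0.079 and 0.271 CPM (log2 fold change 9.10, adjusted p = 5.04e-08). Lef1 and Tcf7, DNA-binding partners of beta-catenin, were higher by 8.06 and 4.32, and Axin2, the most widely used target, by 1.08 (87.4, 127.9 and 104.4 against 40.8 and 54.2 CPM). Apcdd1, Notum, Tcf7l2 and Znrf3 made up the rest of the 10. The 2 lower genes were Lgr6 (-4.24) and the ligand Wnt5b (-2.19), and without 1014-Ctrl mock 1 only 1 was called. The library labelled 1014-Ctrl mock 2, which was not in the fit, had higher levels of Sp5 (32.1 CPM), Nkd1 (60.8 CPM) and Apcdd1 (8.69 CPM) than every mock library in the fit. The 1181-Grpr mock libraries 1 to 3, also outside the fit, had 18.03, 29.03 and 16.86 CPM of Sp5. They had 40.75, 62.24 and 42.24 CPM of Nkd1, and 3.30, 6.45 and 5.15 CPM of Apcdd1.

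ERK pathway output, which reports signalling below NRAS, gave 5 higher and 5 lower genes of 21 tested (median 0.46). The feedback phosphatases Dusp6 (991.9, 1061 and 843.5 against 297.1 and 282.8 CPM) and Dusp4 (1544, 1507 and 1360 against 423.9 and 369.4 CPM) were higher by 1.65 and 1.80 on the log2 scale. Spry4 and Spry1, inhibitors of receptor signalling, were higher by 1.71 and 1.15. Epha4, an ephrin receptor, was higher at 15.5, 11.04 and 8.12 CPM against 0.158 and 0.348 CPM (5.40). Rasgrp3, an exchange factor that activates RAS, was lower at 0.902, 0.068 and 0.152 CPM against 66.4 and 94.3 CPM (-7.87). Braf was lower at 59.0, 59.6 and 67.4 CPM against 139.5 and 166.2 CPM (-1.39 ± 0.11, adjusted p = 2.80e-07). Fosl1 (-3.45), Epha2 (-2.65) and Dusp5 (-1.10) were also lower. Fosl1 shares 57.2% of its exon bases with a gene on the other strand. Among 16 YAP and TAZ targets, 14 were tested, 1 was higher and 2 were lower (median -0.37). This share called was below the 28.0% of all genes tested. The tissue factor gene F3 was higher by 2.26, the matricellular gene Ccn1 lower at -3.31 and the motin gene Amotl2 lower at -1.48. Without 1181-Ctrl mock 1 the lower targets numbered 4, and without 1181-Ctrl mock 2 the higher targets numbered 2. Yap1 had 183.1, 200.4 and 207.8 CPM against 180.3 and 190.1 CPM, with a log2 fold change of 0.002 ± 0.066.

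Interferon-stimulated genes formed the most one-sided list. All 22 were tested, 19 were lower in 1181-Ctrl, none was higher, and the median was -3.60. Ifit2, an inhibitor of viral translation, had 0.043, 0.068 and 0 CPM in 1181-Ctrl against 34.6 and 29.2 CPM in 1014-Ctrl, 770.9-fold lower with a counting interval of 263.3 to 3742. Isg15, a ubiquitin-like modifier, had 3 counts over the 3 libraries against 16.8 and 13.1 CPM, 361.6-fold lower (123.3 to 1757). Oas1a and Oas2, sensors of double-stranded RNA, were 771.1-fold (213 to 6375) and 426.3-fold (75.9 to 16890) lower. Usp18 and Ifit1 were lower at -7.43 and -7.76 on the log2 scale, and the transcription factors Irf7 and Irf9 at -2.76 and -1.59. Stat2, Irf1 and Ifi35 were below 0 at -0.60, -0.78 and -0.49 and were not called. Members of the Oas and Ifit families have close copies, so their single values are less certain than the direction of the list.

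MHC class I genes, which present intracellular peptides to CD8 T cells, went the same way, with 11 of 14 lower, none higher and a median of -1.53. H2-T23, a non-classical class I gene, had 0.515, 0.508 and 0.761 CPM against 75.4 and 63.5 CPM (-6.98 ± 0.18, adjusted p = 1.97e-11). B2m, the invariant light chain, had 216.2, 262.2 and 255.6 CPM against 643.3 and 724.4 CPM (-1.57). The heavy chains H2-K1 and H2-D1 were lower at -2.21 and -1.80, the immunoproteasome subunit Psmb8 at -3.85 and the transactivator Nlrc5 at -3.41. Calr, a chaperone of class I loading, was lower at -2.46. Tap1, Erap1 and Cd274 were not called, at -0.37, -0.87 and 0.43.

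Of 24 chemokines and cytokines only 11 were tested, 2 being higher and 4 lower (median -0.95). Cxcl12, the ligand of CXCR4, had 446.6, 120.4 and 73.2 CPM in 1181-Ctrl and no count in 1014-Ctrl, at least 3625-fold higher, with a 1181-Ctrl replicate spread as wide as that of the mitotic genes. Cxcl1 was higher by 2.67 on low counts. The T cell attractants Ccl5 and Cxcl10 were lower: Ccl5 had 0.343, 0.271 and 0.659 CPM against 29.5 and 26.4 CPM (-6.18), and Cxcl10 had 0.945, 0.373 and 0.304 CPM against 13.4 and 11.9 CPM (-4.63). Lif and Kitl, the latter the ligand of the melanocyte receptor Kit, were lower at -5.25 and -3.97. Mif and Spp1 gave -0.21 and -0.95 without a call; without 1014-Ctrl mock 1 Spp1 was called lower, at -1.28.

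**Figure D4:**
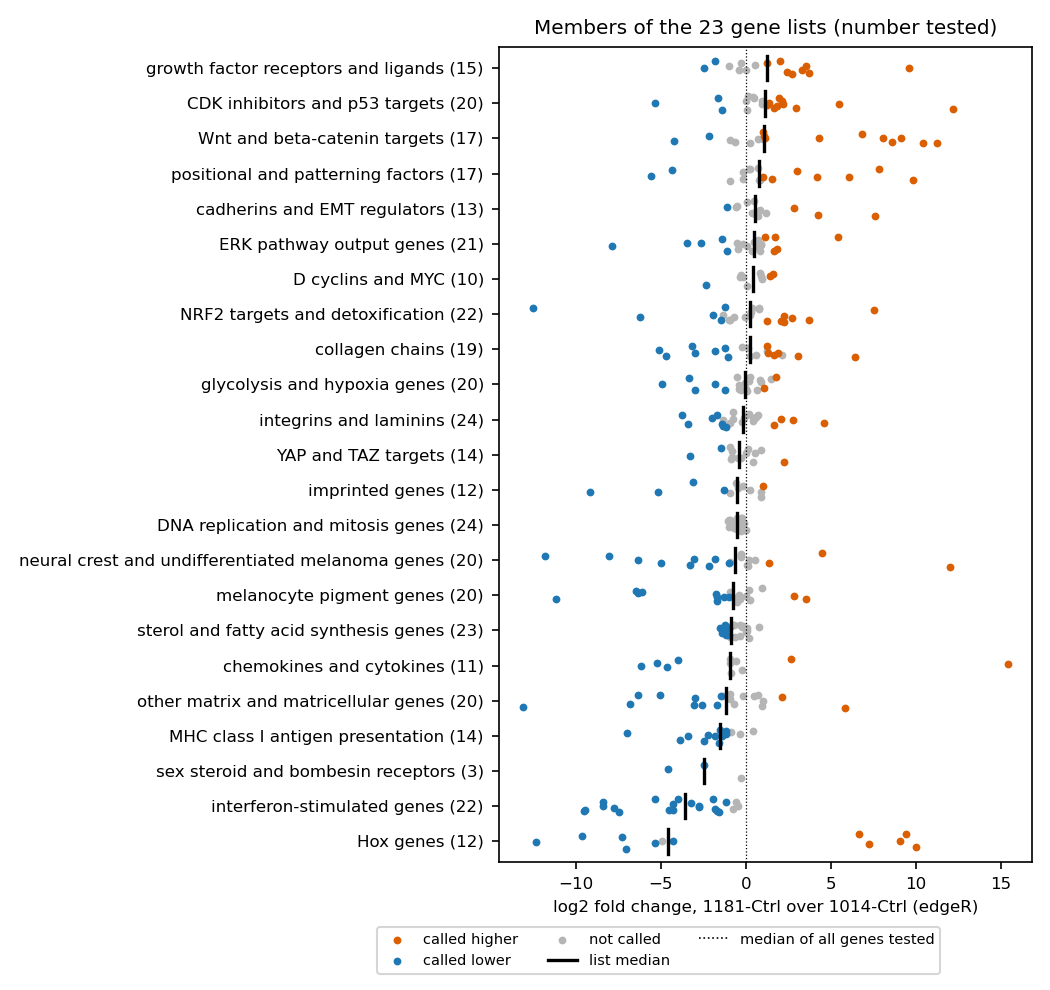
Log2 fold change of 1181-Ctrl over 1014-Ctrl (x axis, edgeR) for each tested member of 23 gene lists (y axis, number tested in parentheses), ordered by list median (black bars); the dotted line is the median of all genes tested, 0.03. Orange points were called higher, blue points lower and grey points were not called. Interferon-stimulated and MHC class I genes lie almost wholly to the left, the Hox genes form separate sets on either side, and the medians of growth factor receptors, p53 targets and Wnt targets lie to the right.

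Collagen chains were called in both directions, while more of the other matrix genes were lower than higher. Of 27 collagen chains, 19 were tested, 6 were higher and 7 lower (median 0.27). Col23a1, a transmembrane collagen, had 209.8, 70.8 and 110.1 CPM against 1.38 and 1.43 CPM (6.44). Col15a1, a basement membrane collagen, had 1.85, 1.15 and 1.17 CPM against 47.1 and 44.4 CPM (-5.13), and Col16a1 had 45.7, 35.2 and 45.0 CPM against 382.1 and 315.3 CPM (-3.15). Of the other matrix and matricellular genes, 9 were lower, 2 higher and 9 not called of 20 tested from a list of 29, 2 of which are not autosomal (median -1.16). Thbs2 had no count in 1181-Ctrl and 36.5 and 46.2 CPM in 1014-Ctrl, at least 1001-fold lower. Timp3, an inhibitor of metalloproteinases, had 0.300, 0.068 and 0.254 CPM against 20.6 and 21.8 CPM (-6.82), and Mmp2, a metalloproteinase, was lower too (-3.08). Fn1, Sparc and Postn were lower at -1.47, -2.60 and -5.04. Fbln2 was the main exception, at 401.2, 378.9 and 383.9 CPM against 5.05 and 7.81 CPM (5.83).

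Among 30 integrin and laminin genes, 24 were tested, 4 were higher and 7 lower (median -0.18). Itgb5, the beta subunit of a vitronectin receptor, had 55.0, 66.4 and 94.0 CPM against 2.21 and 3.37 CPM (4.60 ± 0.30, adjusted p = 4.06e-08). Itga3, Lama5 and Itga4 were higher by 2.76, 2.06 and 1.64. Lamb1 was lower at 5.58, 7.08 and 7.36 CPM against 94.96 and 75.7 CPM (-3.76), and Lamc1, its usual partner chain, at -1.19. Itgb1, the common beta subunit, had 990.5, 827.2 and 957.1 CPM against 990.5 and 923.6 CPM, a log2 fold change of -0.14 ± 0.08 (adjusted p = 0.17).

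Growth factor receptors and ligands had the highest median of the 23 lists, 1.25, with 8 higher and 2 lower of 15 tested from 32. Fgfr1 had 105.3, 101.5 and 92.8 CPM in 1181-Ctrl against 7.57 and 6.50 CPM in 1014-Ctrl (3.74 ± 0.18, adjusted p = 2.27e-09), and Fgfr3 had 24.2, 21.8 and 19.9 CPM against 1.58 and 2.67 CPM (3.28). Fgfr2 was at 9.27, 0.880 and 1.22 CPM against no count, so its size rests on 1181-Ctrl mock 1. The insulin-family receptors Insr (354.3, 343.2 and 354.2 against 47.7 and 52.5 CPM) and Igf1r (98.6, 70.7 and 83.3 against 14.3 and 14.97 CPM) were higher by 2.72 and 2.44. Pdgfa and Pdgfc were higher by 1.25 and 1.98, while Pdgfra, a receptor for both, was lower at -1.79 and the neurotrophin receptor Ntrk3 at -2.47. The level of Pdgfra was low, since the 10 fibroblast markers that include it summed to at most 1.06 TPM in 1181-Ctrl and 2.29 TPM in 1014-Ctrl. Met, the receptor of hepatocyte growth factor, had 1093, 1151 and 1218 CPM against 1052 and 1085 CPM (0.02 ± 0.14). Of 7 autosomal sex steroid and bombesin-family genes, 3 were tested. Esr1, the gene of oestrogen receptor-α, had 0.043, 0.034 and 0.203 CPM in the male line and 2.01 and 1.93 CPM in the female line (-4.57 ± 0.51, adjusted p = 6.14e-06); the female lines 1057 and 1064 had 13.7 to 14.9 and 6.29 to 8.14 CPM. Gper1, a membrane oestrogen receptor, was lower at -2.49 on low counts, a call that leaving out 1181-Ctrl mock 3 or 1014-Ctrl mock 3 removed. The neuromedin B gene Nmb gave -0.29 and was not called.

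Metabolic lists held genes called in both directions, except that of sterol and fatty acid synthesis. Of 24 NRF2 targets and detoxification genes, 22 were tested, 7 were higher and 5 lower (median 0.27). Gstm1 had 910.5, 1419 and 1496 CPM against 101 and 81.2 CPM (3.72), and Gsta3 had 20.6, 152.7 and 102.3 CPM against 0.434 and 0.503 CPM (7.52). Gsta4, a close relative, went the other way at 2.92, 7.62 and 4.06 CPM against 352.6 and 348.7 CPM (-6.23), so that glutathione transferases with related sequences differed in direction; reads shared between such copies make their single values less certain. Akr1b8, an aldo-keto reductase, had 2 counts over the 1181-Ctrl libraries and 180 and 175.1 CPM in 1014-Ctrl, 6437-fold lower with a counting interval of 1782 to 53160. Of 25 glycolysis and hypoxia genes, 20 were tested, 2 were higher and 5 lower (median -0.03), not far from the 28.0% called of all genes tested. The higher genes numbered 5 without 1181-Ctrl mock 1 and 1 without 1181-Ctrl mock 3. Pfkfb3, the kinase that sets fructose-2,6-bisphosphate, had 27.6, 22.9 and 30.2 CPM against 163.9 and 231.5 CPM (-2.97), Eno2 was lower at -4.94, Ndrg1 at -3.33 and Pfkp at -1.82, while Gapdh gave 0.08 and Eno1 0.02. All 23 sterol and fatty acid synthesis genes were tested, 10 being lower, none higher (median -0.88). The regulator Srebf1 had 96.4, 91.6 and 86.8 CPM against 210.1 and 205.5 CPM (-1.27 ± 0.06, adjusted p = 1.78e-09), the desaturase Scd1 was lower at -1.50 and the sterol enzymes Mvd and Sqle at -1.39 and -1.22; without 1181-Ctrl mock 2 the count of lower genes was 4. Acly gave 0.75 and Scd2 0.05 without a call.

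Of 30 imprinted genes, which are expressed from 1 parental allele, 12 were tested, 1 was higher and 4 were lower (median -0.50). Plagl1 had 0.129, 0.102 and 0.051 CPM against 47.8 and 59.4 CPM (-9.14), and Mest had 7.81, 5.66 and 4.21 CPM against 224.1 and 181.2 CPM (-5.19 ± 0.20, adjusted p = 3.81e-10). Grb10 was lower at -1.29. Igf2 was called on 3 against 19 counts, and 62.8% of its exon bases are shared with another gene on its strand. Igf2r was higher by 1.03. Without 1181-Ctrl mock 2 or 1014-Ctrl mock 3 the higher imprinted genes numbered 2. Over the 23 lists, 14 had more lower than higher members, 7 more higher than lower, and in 2 the counts were equal.

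The genes with the widest differences among those of at least 10 CPM were read in 1 line only. In 1181-Ctrl the first was 5430419D17Rik, a protein-coding gene, with 1913, 1627 and 1843 CPM against 1 count over both 1014-Ctrl libraries, 91030-fold higher with a counting interval of 16340 to 3596000. It was followed by genes with no count in 1014-Ctrl: Sema3e, a semaphorin (138, 59.0 and 105 CPM), Evl, an actin regulator (105.1, 71.1 and 78.1 CPM), Satb1, a chromatin organiser (71.7, 77.0 and 88.8 CPM), and Igsf9b, Cacna2d1, Lrp3 and Cacna1d, for which the difference was at least 843.8-fold to at least 1131-fold. Cyfip2, with 1 count in 1014-Ctrl, had 200.2, 262.8 and 303 CPM. In the opposite direction, Arhgef5, a guanine nucleotide exchange factor, had no count in 1181-Ctrl and 132.4 and 132.8 CPM in 1014-Ctrl, at least 3207-fold lower. Moxd1 (102.3 and 100.7 CPM), Trim25, a ubiquitin ligase of the antiviral response (95.7 and 79.2 CPM), Gpr158 (45.4 and 52.5 CPM) and Phyh (32.0 and 28.4 CPM) were likewise without a count in 1181-Ctrl. Fbln5, an elastic fibre protein, had 2 counts there against 383.8 and 314.8 CPM. Mcoln3, a lysosomal and melanosomal cation channel, had 0.043, 0.135 and 0.254 CPM against 798.5 and 743 CPM (-12.48 ± 0.22, adjusted p = 7.34e-13).

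Markers of other cell types were summed as a check of the labels, and their part in the differences was not tested. Of 11 keratinocyte markers, 7 had no count in the 1181-Ctrl libraries (Krt14, Krt1, Krt17, Dsp, Dsg3, Trp63 and Epcam), and the summed level was 8.30 to 9.85 TPM there and 12.8 to 15.8 TPM in 1014-Ctrl. The 10 fibroblast markers summed to 0.50 to 1.06 and 1.91 to 2.29 TPM, with Lum at 0 in both lines. The 11 leukocyte markers summed to 110.8 to 142.8 TPM in 1181-Ctrl and 18.1 to 19.1 TPM in 1014-Ctrl, but Ptprc, Adgre1, Itgam and Tyrobp, which define leukocytes, had no count in either line, and the members called were Lyz2 (4.80), Cd68 (2.49) and Fcer1g (-1.83). Of the 7 endothelial markers, Cdh5 and Emcn were at 0 in both lines and the sum was 6.35 to 6.53 against 0.25 to 0.43 TPM, with Egfl7 called (6.15). The 7 Schwann cell markers, several of which melanoma cells also express, summed to 516.6 to 677.3 TPM in 1181-Ctrl and 1099 to 1246 TPM in 1014-Ctrl, with Cnp (-2.42) among those lower.

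Position on the chromosomes was examined because neighbouring genes can move together. The median log2 fold change of an autosome ranged from -0.40 on chromosome 15 to 0.36 on chromosome 11. Tested genes were then taken in 559 runs of 25 neighbours, whose medians had a 5% quantile of -0.61 and a 95% quantile of 0.63. The widest median was -2.43, in the run at chr6:29279593-30693749 (GRCm38, Fam71f2 to Cep41), where 21 of 25 genes were lower and 24 were below 0. The next run, chr6:30723547-34859459 from Mest to Agbl3, had a median of -2.24 with 21 lower genes and holds Akr1b8. The run after these in size, chr9:41011098-44336077 from Ubash3b to H2afx, had -2.02 with 19 lower genes, while its gene with the largest fitted change, Nectin1, was higher (3.31, 1.86 and 2.13 CPM against none). In the first run that gene was Cpa5, with 0.197 and 0.580 CPM in 1014-Ctrl and none in 1181-Ctrl, at least 9.44-fold lower, a bound short of the change of its neighbour Flnc, an actin-binding filamin, which had 24 against 1070 counts (log2 fold change -6.05). The highest run was chr13:48968287-53286124, with a median of 1.66 and 17 of 25 genes higher.

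Runs beyond 0.5 in size on the same side lay next to each other in 6 blocks of at least 4 runs, a criterion chosen after the values were seen, which together held 40 runs. The block on chromosome 6 spanned 18845910 to 42324643, with 125 tested genes, a median of -1.81, 85 lower genes and 11 higher, and included Mest and Braf. Chromosome 8 held blocks of both signs: 200 genes from 3122061 to 45996958, with a median of 0.72 and 61 higher genes, and 225 genes from 80698507 to 107056689, with a median of -0.94 and 94 lower genes. Insr lies in the former. Cdh1, at 106603351, lies in the latter and was higher, against the direction of its neighbours. The others were on chromosome 9 from 27097384 to 51284210 (-0.86), chromosome 11 from 58867216 to 72267222 (0.68) and chromosome 13 from 43615710 to 58275699 (1.00). The 1057 and 1064 lines gave an outside reference. On the log2(CPM + 0.5) scale, the median over genes of the difference from their mean was 1.28 for 1014-Ctrl and -0.02 for 1181-Ctrl in the chromosome 6 block, so that 1014-Ctrl was the line that stood off there. In the lower block of chromosome 8 the values were 0.37 for 1014-Ctrl and -0.36 for 1181-Ctrl, and in the upper block 0.30 and 0.96. Over all tested genes they were 0.17 and 0.28. Gene dosage was not measured, and its part in these blocks was not tested.

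**Figure D5:**
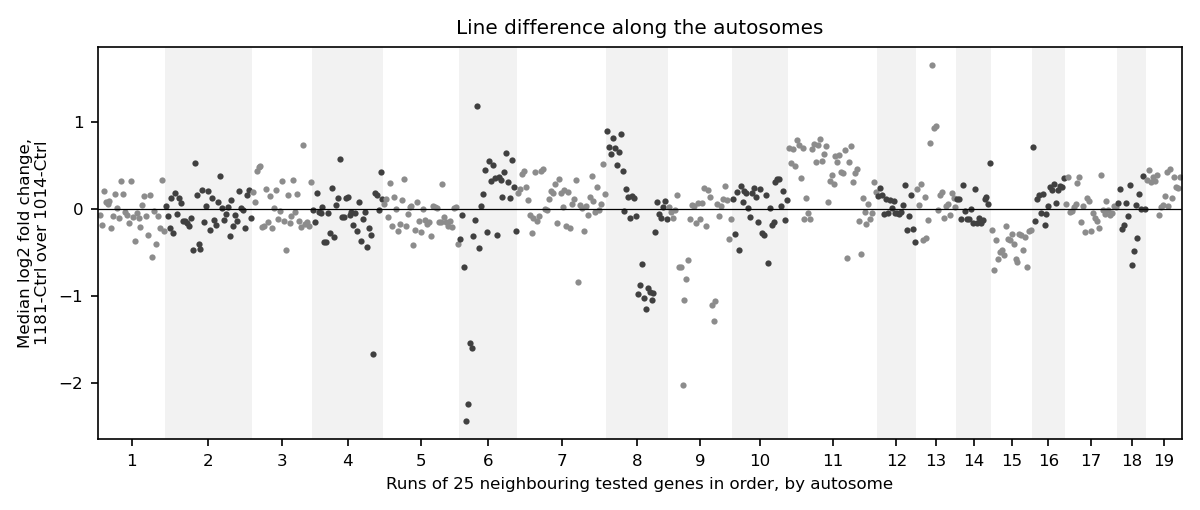
Median log2 fold change of 1181-Ctrl over 1014-Ctrl (y axis) for 559 runs of 25 neighbouring tested genes, in order along the 19 autosomes (x axis, shaded bands mark alternate chromosomes). Most runs lie between -0.61 and 0.63; stepwise groups leave this range on chromosomes 6, 8, 9, 11 and 13, the lowest at -2.43 and the highest at 1.66.

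The line difference was read again under the other treatments. In 23 libraries, 1593 genes (10.8% of 14738 tested) were higher and 1719 (11.7%) lower in 1181-Ctrl under mock, GRP, RC-3095 and both. Treated libraries were not independent of the mock libraries: within 1181-Ctrl, libraries with the same number deviated together from their group means (correlation over genes 0.855 to 0.947), and within 1014-Ctrl the values were 0.480 to 0.650.

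The same parental lines carrying the receptor vector CMV::Grpr/tGFP were compared in 3 against 3 mock libraries. Here 1269 genes (9.42% of 13476 tested) were higher in 1181-Grpr and 915 (6.79%) lower. The 1181-Grpr mock libraries all hold genes of 1014-Ctrl at about the levels given at the start (31.6 to 33.0%), and there was no 1181-Grpr mock library without them, so this comparison could not be given without that feature. Tested directly, the line difference was higher in the Ctrl pair than in the Grpr pair for 85 genes (0.595% of 14296 tested) and lower for 729 (5.10%). Of the 729, 681 were among the genes lower in 1181-Ctrl and 14 among the genes higher in it. Of the 85, 74 were among the genes higher in it. Over all genes tested in the Ctrl pair, 13.9% were lower and 14.1% higher. The Ctrl mock libraries enter both tests, so this overlap is in part built in and no conclusion is drawn from it. Arhgef5 shows the form of the difference: no count in 1181-Ctrl and 132.4 and 132.8 CPM in 1014-Ctrl, but 42.6, 44.3 and 46.1 CPM in 1181-Grpr and 152.5, 149.1 and 150.5 CPM in 1014-Grpr (edgeR test of the difference, adjusted p = 2.30e-08). Tyrp1, Dct and Cdkn2a had log2 fold changes of -0.92, -2.03 and -2.03 in the Grpr pair beside -11.17, -6.46 and -5.32 in the Ctrl pair. Cxcl12, without a count in 1014-Ctrl, had 168.3, 37.4 and 47.6 CPM in 1181-Grpr and no count in 1014-Grpr. Nkd1 had 40.7, 62.2 and 42.2 CPM in 1181-Grpr against 0, 0.031 and 0.093 CPM in 1014-Grpr, and Hoxa3 had 3.27, 4.27 and 4.74 CPM against 0, 0 and 0.047 CPM. Cdh1 had log2 fold changes of 2.97 in the Grpr pair and 2.85 in the Ctrl pair.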

How the data were processed

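RNA was extracted with miRNeasy kits and libraries were made with TruSeq Stranded mRNA reagents. Per the labels and the methods of the study, the authors checked reads with FastQC 0.11.5, aligned them with STAR to mm10 (GENCODE annotation on GRCm38.p5) and deposited raw counts per gene and TPM. The STAR version and the strand setting of the counting are not given in the sources used here. The count table was used for all 72 libraries; 12 TPM columns, of the 1057 line, write decimal commas and were not used. Gene positions came from GENCODE M21 (GRCm38), which held 99.557% of the 50600 gene IDs, and promoters from RefSeq (GRCm38.p6).

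The members, gene lists and tests were chosen with earlier results of these data known. Counts were tested in R 4.3.3 with edgeR 4.0.16 (filterByExpr, TMM factors, glmQLFit, glmQLFTest, 1 mean per group) on 14 libraries: 1181-Ctrl mock 1 to 3, 1014-Ctrl mock 1 and 3, and the 9 treated 1014-Ctrl libraries, which steadied the spread. The fit covered 14737 genes and p-values were adjusted over all of them by the Benjamini-Hochberg method; only autosomal genes are reported. Calls needed an adjusted p below 0.05 and an absolute log2 fold change above 1. Fits of the Grpr pair (6 libraries), of the difference between pairs (11) and of all treatments (23) used the same steps. Alternatives used DESeq2 1.42.0 and, for the deposited TPM, limma 3.58.1 on log2(TPM + 1) or log2(TPM + 0.1). The steps were tested on simulated counts. CPM values are counts scaled to the library total. A group at 0 was set to a floor of 3 counts over the group to give a bound, and groups with 1 to 3 counts were given the ratio with an exact 95% binomial interval; both cover counting error only. None of the 6 pairs of mock libraries within a line agreed within sampling noise; other pairs were not compared.

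Named genes were those of the genotypes with Esr1 and Mitf; the 10 called protein-coding genes with the largest and the 10 with the smallest log2 fold change among those with at least 10 CPM in the higher line and no overlap; in each list up to 4 called members with the largest change and up to 2 uncalled members with the highest CPM; the gene with the largest change in each of the 3 widest runs; and the 5 genes with the smallest p of the difference between pairs. Other list members, given with single values, were named after their values were seen. Some list members that the rule would name are not reported here. With 2 or 3 libraries a group no permutation of a single gene could reach 0.05, so model p-values are given.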

Additional observations from a re-analysis of the deposited data

Results flagged for a closer look

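The line difference differed between the Ctrl pair and the Grpr pair by the test of the difference itself (edgeR, 11 libraries): it was higher in the Ctrl pair for 85 genes and lower for 729. The 5 genes with the smallest p were all lower. The differences of the log2 fold changes below are fitted values; for Akr1b8, Arhgef5 and Tsnax, with at most 3 counts in 1181-Ctrl, their size depends on the prior count and is no bound. The difference was -10.80 for Akr1b8. The gene had 0, 0.034 and 0.051 CPM in 1181-Ctrl, 57.4, 58.0 and 59.6 CPM in 1181-Grpr, 180 and 175.1 CPM in 1014-Ctrl, and 191.3, 166.9 and 192.4 CPM in 1014-Grpr. It was -10.46 for Mcoln3, which had 224.1, 206 and 243.9 CPM in 1181-Grpr, and -12.98 for Arhgef5. It was -9.61 for Tsnax, an RNA-binding partner of translin (0, 0.068 and 0.051 CPM in 1181-Ctrl against 32.3, 29.7 and 30.1 CPM in 1181-Grpr), and -8.50 for Plagl1 (0.129, 0.102 and 0.051 against 24.9, 24.4 and 22.2 CPM). In all 5 the libraries of 1181-Grpr lay between those of 1181-Ctrl and 1014-Grpr. The cause was not tested.

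Signal was also seen in libraries outside the comparison. In the library labelled 1014-Ctrl mock 2, 90 of the 90 genes of 1181-Ctrl were over 3 counts. In 1014-Ctrl mock 1 and 3 none was, by the choice of these genes. The level in the library labelled 1014-Ctrl mock 2 lay between the lines for 2464 of the 3974 called genes (62.0%). In the library labelled 1181-Grpr GRP+RC 2, 9 of the 90 were over 3 counts, where the other 11 libraries of 1181-Grpr held all 90.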

How the results depend on the processing

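No gene called in the reported fit was called in the opposite direction under any of the 16 alternative settings. The counts of higher and lower genes were 1885 and 1996 with DESeq2, 1956 and 2001 with DESeq2 size factors in edgeR, 2037 and 2239 with no filter on low counts, 1747 and 1639 with the 5 mock libraries alone, 2004 and 1917 with all 23 libraries, and 1538 and 1416 (pseudocount 1) or 2069 and 1907 (0.1) with TPM in limma. With the adjusted p alone they were 4432 and 4090. The library that mattered most was 1014-Ctrl mock 2: kept under its label, it left 745 higher genes and 1618 lower, and the share of higher genes among the calls fell from 50.3 to 31.5%. A comparison chosen after seeing the data put 1014-Grpr mock 1 to 3 in place of 1014-Ctrl and gave 1705 higher and 1718 lower genes.

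Leaving out each mock library in turn gave 1737 to 2085 higher genes, 1884 to 2220 lower genes and 13 to 15 lists with more lower members; where 1 library of 1014-Ctrl remained, it was taken to vary like the other groups. In the Grpr pair the ranges were 1239 to 1377 and 843 to 1034, for the difference between pairs 602 to 1108 and for all treatments 3022 to 3270 genes. The widest run had a median of -1.98 in runs of 50 genes.

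The mock libraries with the same replicate number had correlations of 0.085 and 0.119 between the lines, over 2 pairs only. These cannot decide whether the numbers pair the lines, since deviations of 2 libraries from their mean mirror each other. Over all treatments, 44 pairs with the same number had a median correlation of 0.0944 between the lines (-0.042 to 0.193). The 88 pairs with different numbers had a median of -0.0329 (-0.175 to 0.0561). Libraries with the same number were thus slightly more alike, in pairs that share libraries. With the replicate block the counts were 1948 and 2044 in the Ctrl pair, 1233 and 900 in the Grpr pair, 786 for the difference and 3474 under all treatments, and no call of a named gene was lost. Hoxb5 and 3 of the 24 replication and mitosis genes, none called in the reported fit, were then called lower; of these 24, 2 were called with no filter and 1 with the adjusted p alone or with TPM.

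The values that turned sign were those of genes not called, except Ednrb and Apcdd1. Yap1 gave -0.0143 with DESeq2, -0.0141 with its size factors in edgeR, -0.00878 with all 23 libraries and -0.0236 with no filter, where Eno1 gave -0.00767 and Met -0.00208. With 1014-Ctrl mock 2 kept, Erbb3 gave 0.0367, Nes 0.0153, Peg13 0.0735, Eno1 -0.0254, Met -0.25, Apcdd1 -0.69 and Ednrb -3.10; Apcdd1 and Ednrb had been called higher and were then not called. With the replicate block Eno1 gave -0.0265 and Met -0.0542. Txnrd1 gave 0.0367 (pseudocount 1) and 0.0370 (0.1) with TPM, and 0.0820 with 1014-Grpr in place, where Met gave -0.24. Leaving out single libraries, Scd2 ranged from -0.0494 to 0.128, Yap1 from -0.0464 to 0.0547, Col5a1 from -0.22 to 0.81, Txnrd1 from -0.285 to 0.21, Eno1 from -0.0817 to 0.103, Met from -0.0168 to 0.0636 and Nmb from -0.584 to 0.0456.

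Depth limits what can be said of genes at or below 3 counts a group, for which the report gives bounds, counting intervals or counts; fitted log2 values of such genes depend on the prior count. With 3 against 2 libraries of 1 line each, a difference between the lines cannot be assigned to sex, genotype or the tumour of origin, and 1181-Ctrl mock 1, which had the highest mitotic gene levels, moved the replication genes called from 0 to 19 when left out.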

Other observations

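Protein-coding genes called in the same direction stood next to each other in stretches that the gene lists do not show. Only tested protein-coding genes were taken in order, so other tested genes between them were passed over. The longest stretches held 13 such genes, all lower in 1181-Ctrl. One lay at chr9:98986373-101251795, from Faim to Ppp2r3a, with a median log2 fold change of -1.43. Another lay at chr6:30211289-33060260, from Ube2h to Chchd3, with a median of -1.86. A stretch of 12 lower genes at chr6:28239927-29388468, from Zfp800 to Opn1sw, had a median of -3.19. At chr6:34029448-34505613, 7 lower genes included the aldo-keto reductases Akr1b3, Akr1b8, Akr1b10 and Akr1b7 (median -2.32). At chr8:91798525-93048192, 6 lower genes included the homeobox genes Irx3 and Irx5 and the metalloproteinase gene Mmp2 (-3.57). At chr7:104299894-104842603, 6 lower genes included the antiviral family members Trim12a, Trim12c, Trim30a and Trim30d (-3.77), which have close copies. Higher genes, 6 in a row, stood at chr9:106892825-107529343, from Dock3 to Cacna2d2 (2.50). No test was made of these stretches.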
